A study of Mus musculus with 75 samples.

Results

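Gpx1, Gpx3, Gpx4, Gpx6, Nqo1, Hmox1, Txnrd1, Gclc, Gclm and Srxn1 are 10 of the 32245 genes counted in whole kidneys of mice with unilateral ureter obstruction (UUO). They were picked by symbol as 4 glutathione peroxidases and 6 genes known as targets of the transcription factor NRF2, partly because Gpx6 was known to have one of the largest falls with obstruction in these data. Gpx6 is therefore described, and not tested, in every comparison that holds obstructed kidneys. All 10 genes had a count above 0 in each of the 75 libraries, and all 10 passed the filter on low counts in every fit.

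Glutathione peroxidases reduce hydrogen peroxide and lipid peroxides with electrons from glutathione, and several of them carry selenocysteine, the selenium form of cysteine, in the active site. NRF2 is held and marked for degradation by KEAP1 in unstressed cells. When oxidants or electrophiles modify KEAP1, NRF2 accumulates, pairs with small MAF proteins and binds antioxidant response elements in genes that make glutathione, recycle thioredoxin and peroxiredoxin, and detoxify quinones and haem. The kidney is known as the main source of the plasma enzyme GPX3, made in the tubule.

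RNA was sequenced from kidneys of adult mice of both sexes 3 days after obstruction. Each group of mice gave obstructed (UUO) and contralateral (CL) kidneys. Mice treated with ABTAA, an antibody that binds angiopoietin-2 and thereby activates the endothelial receptor TIE2, gave 7 CL and 7 UUO libraries, and mice given human IgG Fc at the same dose gave 8 and 8. These were C57BL6/J mice or WT mice of the breeding, the other lines being on a mixed background. VeptpKO mice had lost Veptp, the phosphatase gene that restrains TIE2, from endothelium through tamoxifen and Cdh5-CreERT2 (6 CL and 8 UUO libraries), and VeptpWT mice were noninduced Veptp wt/lox animals with Cdh5-CreERT2 (7 and 8). The study's methods list fewer VeptpWT mice than there are VeptpWT UUO libraries, so some of these may not be separate animals. PdgfbKO mice had Pdgfb deleted in all cells that an Actb-driven CreERT2 reaches (4 and 4), and PdgfbWT mice were Cre-negative Pdgfb wt/lox or lox/lox littermates (4 and 4), with sham-operated kidneys among their CL libraries that the labels do not mark. Libraries held between 172827 and 2341800 counts (median 757897), and the labels do not tie most of them to animals, so the p-values below measure the spread between libraries.

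Some libraries stood apart or went against their labels. Pdgfb itself was not lower in CL kidneys labelled PdgfbKO, at 19.4 ± 4.05 CPM (counts relative to the library's total, after TMM scaling) against 10.6 ± 6.84 CPM in PdgfbWT (SD, n = 4 each). In UUO kidneys it was at 37.8 ± 3.20 against 53.9 ± 6.75 CPM, a log2 difference of -0.47 (adjusted p = 0.125, edgeR quasi-likelihood test). The UUO response of Pdgfb was smaller in mice labelled PdgfbKO, 1.03 against 2.28 on the log2 scale (difference -1.26, adjusted p = 0.0460). This difference combines the lower UUO level with a higher CL level (log2 difference 0.78, not called). The whole-gene count also holds reads from outside a deleted part, which the labels do not name, so the text speaks of libraries labelled PdgfbKO. Ptprb, the gene symbol of Veptp, was lower in VeptpKO by -0.63 in CL and -0.69 in UUO kidneys (adjusted p = 1.00 for both). At least 10 counts of Xist and also of Y-linked transcripts were found in 24 of 75 libraries, including all 4 UUO libraries labelled PdgfbKO, 0 of the 4 CL ones, and 2 of 4 in each PdgfbWT group. Library names had 2 forms, 45 plain and 30 with a letter and number joined by a low line (joined names), and both forms occur in the ABTAA and Veptp arms only. Xist and Y-linked transcripts were found together in 22 of the 45 plain and 2 of the 30 joined libraries. Gm42418 and AY036118, which overlap ribosomal RNA sequence, took 9.18% to 21.8% of counts in plain and 0.325% to 0.778% in joined libraries of the Veptp arm, and 7.32% to 18.7% against 3.89% to 5.91% in the ABTAA arm.

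To show what the peroxidases share and where Gpx6 differs, the codon that encodes the catalytic residue is given with 12 bases on each side, in capitals, 5′ to 3′ on the plus strand of mm10. In Gpx1, Gpx3 and Gpx4 the annotation marks an in-frame TGA as selenocysteine, and in Gpx6 the aligned codon is TGT, which encodes cysteine.
Gpx1: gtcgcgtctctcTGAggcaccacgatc
Gpx3: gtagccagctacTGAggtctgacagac
Gpx4: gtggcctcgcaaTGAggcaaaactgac
Gpx6: gtggcatccttcTGTggcctgacagct
Counted from the start codon, these are codon 47 of Gpx1-201 (chr9:108339451-108339453), codon 73 of Gpx3-201 (chr11:54907256-54907258), codon 129 of Gpx4-201 (chr10:80054737-80054739) and codon 73 of Gpx6-201 (chr13:21313777-21313779), all in coding exons. Txnrd1 also has 1 annotated selenocysteine codon, and the other 5 members have none.

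The core of the antioxidant response element, TGACNNNGC, was searched on both strands of the 300-base windows around transcript starts in RefSeq (GRCm38.p6), which held 8 of the 10 members. Windows of Txnrd1, Gclm and Srxn1 held a match, each on the minus strand, so that the printed plus strand reads GCNNNGTCA, in capitals.
Txnrd1: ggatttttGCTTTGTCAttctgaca
Gclm: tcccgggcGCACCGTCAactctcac
Srxn1: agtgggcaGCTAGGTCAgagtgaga
They lie at chr10:82859106-82859130 (92 bases before the start), chr3:122245415-122245439 (134 bases before) and chr2:152105544-152105568 (28 bases after). The Txnrd1 match is in 1 of its 3 windows. Of all 27025 genes in that table, 14% had a match, and a match is only a run of letters. The windows of Gpx1, Gpx3, Gpx4, Gpx6 and Nqo1 held none, which says nothing about binding of NRF2 elsewhere.

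Gpx6, a peroxidase best known from the olfactory epithelium, lay at chr13:21312125-21319624 and was clearly present in unobstructed kidney. In CL kidneys its level had a median of 101 in IgG mice (lowest 48.9, highest 158) and 95.8 in ABTAA mice (61.4 to 151). The medians were 79.1 in VeptpWT (62.5 to 101) and 66.2 in VeptpKO (59.6 to 132). The ranges of these groups overlapped throughout.

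In UUO kidneys the Gpx6 level had a median of 5.37 CPM in IgG mice (2.81 to 36.0) and 9.54 CPM in VeptpWT mice (3.12 to 24.0), below every CL library of the same mice. It was 11.4 CPM in ABTAA mice (4.66 to 69.5), where the highest UUO library exceeded the lowest CL library, and 11.4 CPM in VeptpKO mice (3.02 to 52.0), again below every CL library. These levels rest on few reads, 1 to 13 counts per library in IgG UUO kidneys. The fitted log2 change with UUO was -3.61 in IgG, -2.41 in ABTAA, -2.85 in VeptpWT and -2.33 in VeptpKO mice (SE 0.434, 0.400, 0.446 and 0.466), given without a test since Gpx6 was chosen on this contrast. Without IgG UUO replicate 2, the library at 36.0 CPM, the IgG value was -4.24.

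In the Pdgfb arm the 4 PdgfbWT CL libraries held Gpx6 at 48.6, 134, 67.6 and 108 CPM, and the 4 PdgfbWT UUO libraries at 3.84, 0.607, 11.3 and 12.0 CPM (6, 1, 28 and 12 counts). The CL libraries labelled PdgfbKO had 54.7, 71.4, 80.9 and 94.5 CPM, and the UUO libraries so labelled 51.0, 14.8, 35.7 and 53.3 CPM (15, 13, 41 and 67 counts). All 8 UUO libraries lay below all CL libraries of their own label, and every UUO library labelled PdgfbKO lay above every PdgfbWT one. How many of all genes separate without overlap, here or in the comparisons above and below, was not computed. The change with UUO was -3.66 (SE 0.414), a 12.7-fold lower level, in PdgfbWT and -1.005 (SE 0.376), a 2.01-fold lower level, in mice labelled PdgfbKO. Without libraries that held both Xist and Y-linked transcripts the PdgfbWT value was -2.93.

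**Figure D1:**
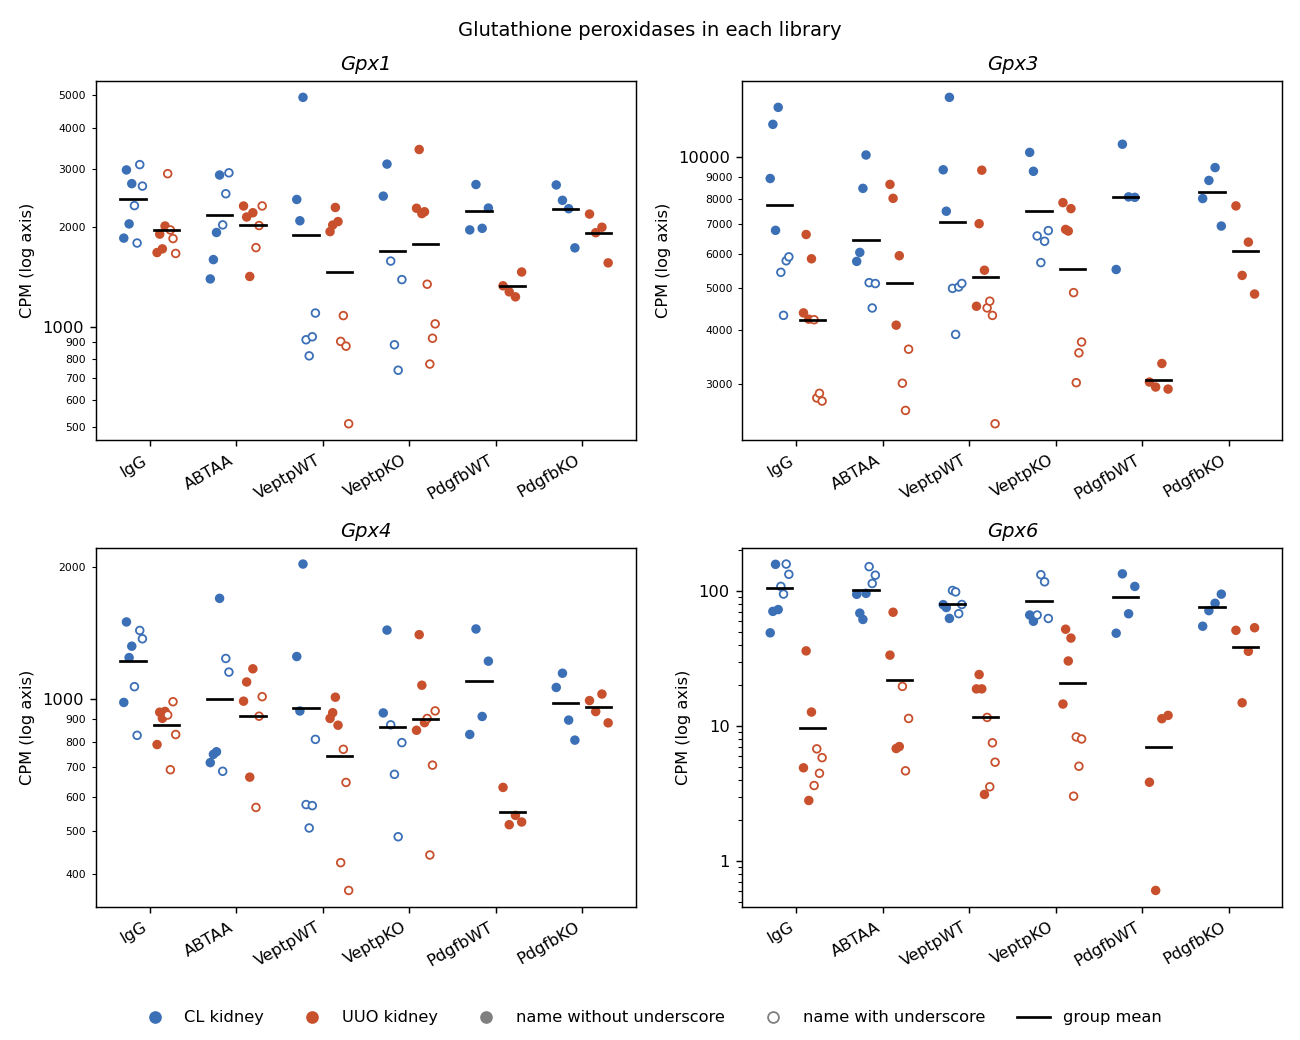
Level of Gpx1, Gpx3, Gpx4 and Gpx6 in each of the 75 libraries (y axis, CPM on a log scale) for the 6 groups of mice, with CL kidneys in blue, UUO kidneys in red, open points for joined library names and a bar at the group mean. The Gpx6 mean is lower in UUO than in CL kidneys of every group. In libraries with plain names the UUO mean is 38.7 CPM in mice labelled PdgfbKO (14.8 to 53.3), 35.4 CPM in VeptpKO (14.5 to 52.0) and 29.2 CPM in ABTAA mice (6.81 to 69.5), with overlapping ranges.

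The plot of the 4 peroxidases by library shows the widest gap between CL and UUO kidneys for Gpx6 in each group. Gpx3 (chr11:54902453-54910377), the plasma peroxidase, fell in PdgfbWT kidneys from 5512, 10722, 8106 and 8086 CPM in CL to 3031, 2952, 3345 and 2920.4 CPM in UUO libraries. The 2 sets did not overlap, and the log2 change was -1.40 (SE 0.200, adjusted p = 3.65e-06). In IgG mice the Gpx3 level fell from a median of 6340.1 (4320.4 to 13041) to 4227 CPM (2740.0 to 6637), a log2 change of -0.88 (SE 0.271, adjusted p = 0.0106) with overlapping ranges. In the other 4 groups the Gpx3 change lay between -0.46 and -0.33 and did not pass the threshold in this fit. It passed in ABTAA libraries with joined names (-0.69, adjusted p = 0.0166) and in their paired fit, in VeptpKO mice with the name form as a covariate, both given below, and in mice labelled PdgfbKO without the filter on low counts (-0.45, adjusted p = 0.0331).

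Gpx4 (chr10:80047166-80056439) encodes the enzyme that reduces phospholipid hydroperoxides in membranes and holds back ferroptosis. It fell in PdgfbWT kidneys from 832, 1447, 914 and 1222 CPM in CL to 629.8, 518, 544 and 525 CPM in UUO, again without overlap (log2 change -0.99, SE 0.157, adjusted p = 1.56e-05). In IgG mice it fell from a median of 1283 (828 to 1501) to 913 CPM (691 to 988), a log2 change of -0.48 (SE 0.176, adjusted p = 0.0320). Leaving out any of 4 of the 30 libraries of that arm (IgG CL replicates 2, 7 and 8, IgG UUO replicate 6) took this call away, with an adjusted p of up to 0.0635, and it was also lost with Xist as a covariate, in each name form alone and with all 12 groups in 1 fit.

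Gpx1 (chr9:108338903-108340343), the cytosolic and most general peroxidase, fell in PdgfbWT kidneys, the only group where it passed in the unblocked fit of all libraries. Its libraries held 1963, 2691, 1984 and 2285 CPM in CL and 1331, 1276, 1232 and 1465 CPM in UUO, a log2 change of -0.75 (SE 0.155, adjusted p = 0.000394) with no overlap. The fitted Gpx1 change in the other 5 groups was between -0.36 in VeptpWT and 0.07 in VeptpKO, and whether it differs between the groups of mice was tested only within each arm.

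Of the NRF2 targets, Hmox1 and Srxn1 rose in the IgG, ABTAA and both Pdgfb groups. Macrophage and injured tubule markers rose with UUO in all 6 groups, the Veptp groups included, as counted with the other cell type markers below. Hmox1 (chr8:75093621-75100589) encodes haem oxygenase 1, which breaks haem down to biliverdin, iron and carbon monoxide. It rose in IgG mice from a median of 22.5 CPM (12.7 to 45.8) in CL to 58.3 CPM (44.7 to 109.6) in UUO, and in ABTAA mice from 14.0 (7.90 to 44.6) to 49.6 CPM (16.7 to 108). Both log2 changes were 1.51 (SE 0.336 and 0.343, adjusted p = 0.000534 and 0.00108), with the ranges overlapping in each. In PdgfbWT kidneys it rose from 20.3, 17.1, 15.0 and 21.3 CPM to 44.8, 44.9, 37.2 and 28.0 CPM, without overlap (log2 change 1.06, SE 0.282, adjusted p = 0.00418).

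In kidneys labelled PdgfbKO, Hmox1 rose from 31.3, 2.55, 9.24 and 16.3 CPM to 23.8, 43.4, 38.3 and 35.8 CPM (log2 change 1.12, SE 0.320, adjusted p = 0.0359). The 2 sets overlapped, 1 CL library held a single count of Hmox1, and the call was lost without any of 6 of the 16 libraries of the arm (CL or UUO replicates 2, 3 and 4 labelled PdgfbKO; adjusted p of up to 0.111). Leaving out 1 library moved the value between 0.88 and 1.71. In the Veptp arm the Hmox1 change was 1.11 in VeptpWT and 1.46 in VeptpKO mice and missed the threshold (adjusted p = 0.112 and 0.0839).

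Srxn1 (chr2:152105516-152111376) encodes sulfiredoxin, which restores overoxidised peroxiredoxins. It rose in IgG mice from a median of 69.6 CPM (52.0 to 90.8) to 116 CPM (73.2 to 178) and in ABTAA mice from 63.7 (53.6 to 83.0) to 94.5 CPM (66.3 to 127). The log2 changes were 0.67 (SE 0.149, adjusted p = 0.000488) and 0.57 (SE 0.154, adjusted p = 0.00500). In PdgfbWT kidneys the Srxn1 level went from 83.6, 72.5, 54.1 and 61.9 CPM to 123, 119.6, 99.1 and 68.9 CPM (log2 change 0.60, SE 0.215, adjusted p = 0.0307), and in those labelled PdgfbKO from 80.8, 33.1, 74.0 and 72.2 CPM to 68.0, 133, 141 and 129 CPM (0.87, SE 0.227, adjusted p = 0.0220). UUO and CL libraries overlapped in both, and each call was lost without any of 4 of the 16 libraries: CL replicates 3 and 4 or UUO replicates 1 and 2 for PdgfbWT (adjusted p of up to 0.0995), CL replicate 2 or UUO replicates 2, 3 and 4 for those labelled PdgfbKO (up to 0.0756).

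Nqo1 (chr8:107388225-107403206, minus strand), the quinone reductase often used as a readout of NRF2, was not called higher with UUO in any group, unlike Hmox1 and Srxn1. In IgG mice it fell from a median of 102 CPM (54.5 to 247) to 53.5 CPM (41.5 to 103), a log2 change of -0.92 (SE 0.240, adjusted p = 0.00281). The Nqo1 change was -0.53 in ABTAA, -0.65 in VeptpWT, -0.64 in VeptpKO and -0.51 in PdgfbWT mice, none past the threshold (adjusted p between 0.0789 and 0.160). Without the filter on low counts Nqo1 passed in ABTAA (-0.57, adjusted p = 0.0310) and PdgfbWT mice (-0.48, adjusted p = 0.0376). In mice labelled PdgfbKO it was 0.54 (adjusted p = 0.208).

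Of the genes for glutathione synthesis and thioredoxin recycling, Gclm (chr3:122245557-122270732), the modifier subunit of glutamate-cysteine ligase, was the only one to pass, and fell in PdgfbWT kidneys from 342, 246, 295 and 251 CPM to 214, 251, 204 and 195 CPM (log2 change -0.39, SE 0.144, adjusted p = 0.0344). The sets overlapped, and the call was lost without any of 5 of the 16 libraries (PdgfbWT CL replicates 1 and 3, PdgfbWT UUO replicates 1, 3 and 4; adjusted p of up to 0.132) and without the filter on low counts (adjusted p = 0.0683). Gclc (chr9:77754535-77794485), the catalytic subunit that sets the rate of glutathione synthesis, and Txnrd1 (chr10:82833951-82897712), cytosolic thioredoxin reductase, passed the threshold in no group in the fit of all libraries of an arm with TMM scaling. Their changes ran from -0.30 to 0.26 for Gclc and from -0.17 to 0.22 for Txnrd1. Other annotated genes overlap Txnrd1 and Gclm (on the opposite strand, and on the same strand Eid3 for Txnrd1 and the pseudogene Gm6061 for Gclm), and the use of strand in counting is not stated by the labels or the methods, so reads of these 2 genes are less certain.

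**Figure D2:**
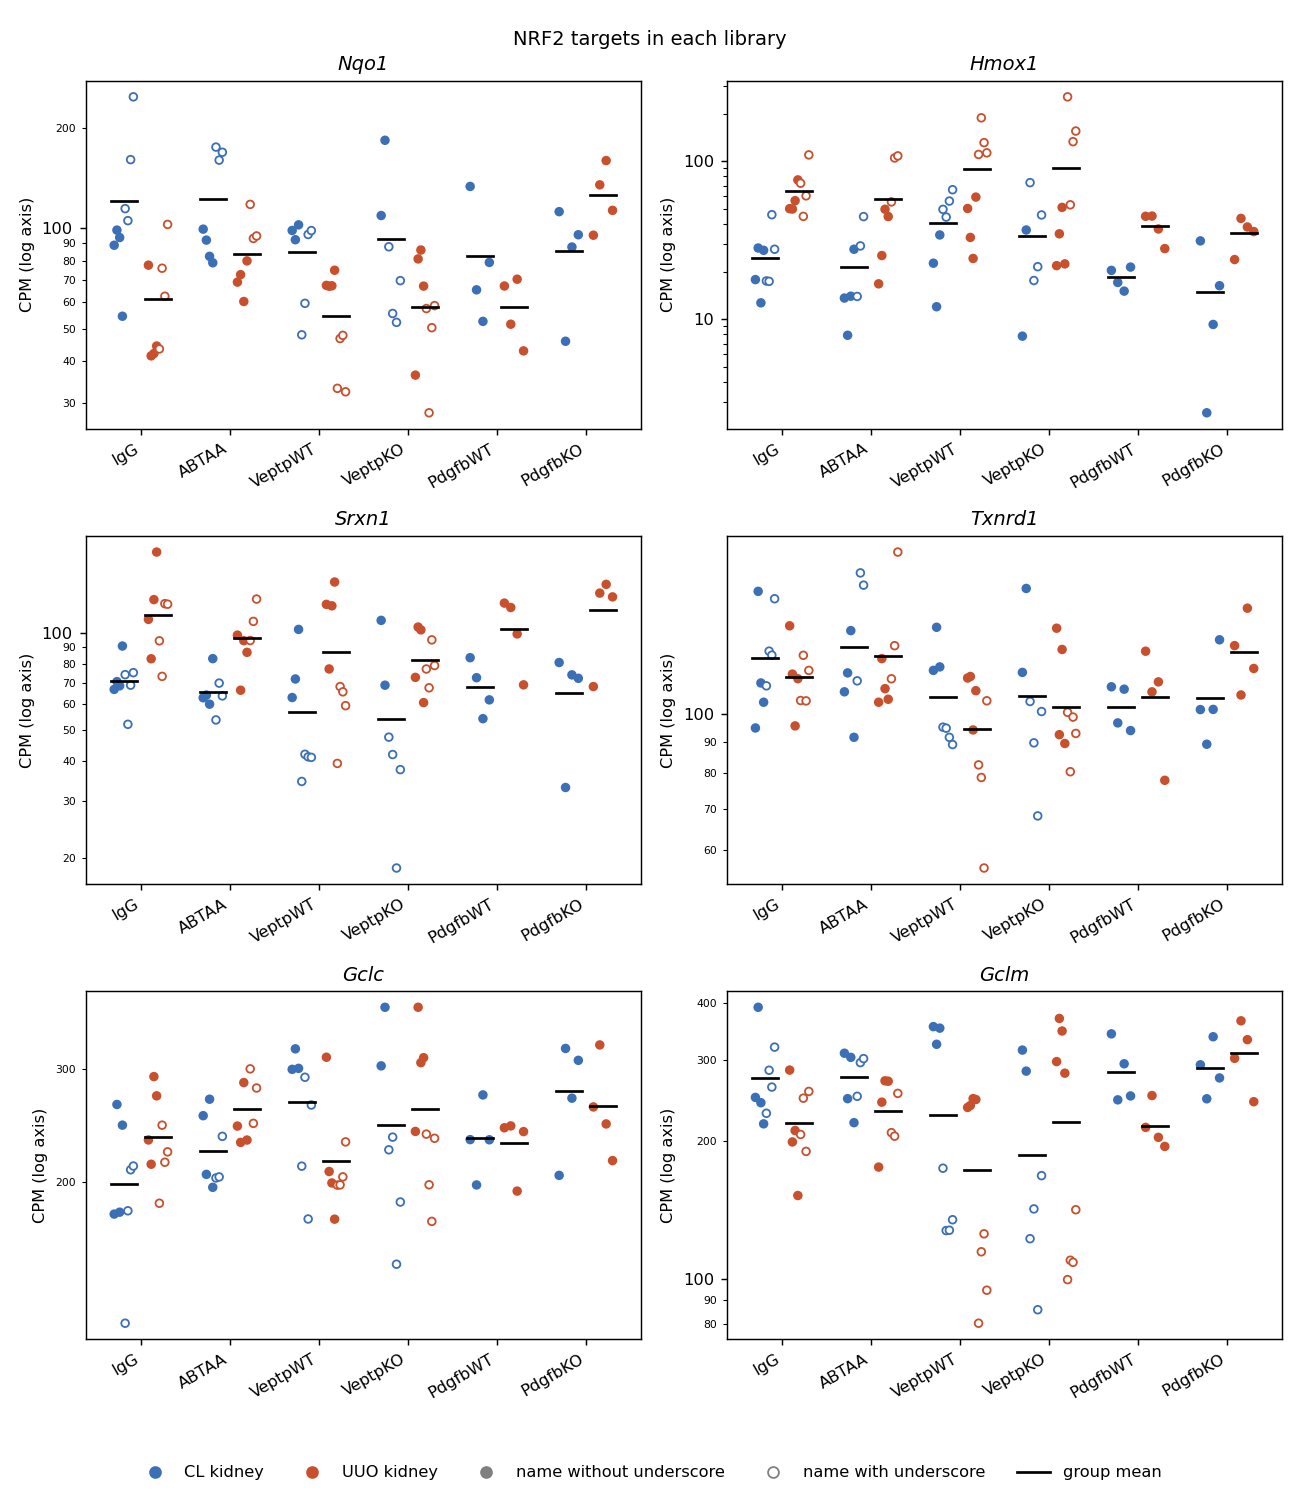
Level of Nqo1, Hmox1, Srxn1, Txnrd1, Gclc and Gclm in each of the 75 libraries (y axis, CPM on a log scale) for the 6 groups of mice, with CL kidneys in blue, UUO kidneys in red, open points for joined library names and a bar at the group mean. Hmox1 and Srxn1 means are higher in UUO than in CL kidneys of all 6 groups. Nqo1 is the only one of the 6 genes whose UUO libraries labelled PdgfbKO all lie above the PdgfbWT ones. The share of all genes that separate in this way was not computed.

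Among the 9 members tested, 2 rose and 3 fell in IgG mice, where 16.3% of the 9579 genes tested rose and 18.2% fell. In ABTAA mice 2 rose and 0 fell (background 12.6% and 12.5%), and in PdgfbWT mice 2 rose and 4 fell (17.9% and 19.4% of 10923 genes). In mice labelled PdgfbKO 2 rose and 0 fell (3.94% and 2.42%). No member passed in VeptpWT (10% and 8.38% of 11916 genes) or VeptpKO mice (4.47% and 3.47%) by edgeR's quasi-likelihood test, with 3 members in each at an unadjusted p under 0.05, as were 29.4% and 20.2% of genes. The exact test of edgeR called Hmox1 in VeptpWT, and DESeq2 called none. The median log2 change of the 9 was -0.39 in PdgfbWT, -0.36 in VeptpWT, -0.31 in IgG and -0.11 in ABTAA mice, and above 0 in VeptpKO (0.07) and in mice labelled PdgfbKO (0.11), while the median over all genes lay between -0.01 and 0.04 in the 6 groups. Counts without TMM scaling had a median change over all genes of 0.41 in PdgfbWT and 0.23 in IgG mice. The share of calls that were higher moved from 48% to 79.4% in PdgfbWT and from 47.3% to 69.6% in IgG mice. Without TMM, Gclm (PdgfbWT) and Gpx4 (IgG) lost their calls. Gclc (IgG), Txnrd1 (PdgfbWT) and Srxn1 (both Veptp groups) were called higher instead, and the members called under both scalings had the same direction. With all 12 groups in 1 fit, PdgfbWT mice kept Gpx3 (-1.41, adjusted p = 0.00414) and Gpx4 (-0.995, adjusted p = 0.0112) alone, and mice labelled PdgfbKO kept neither Hmox1 (1.16, adjusted p = 0.551) nor Srxn1 (0.86, adjusted p = 0.197).

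**Figure D3:**
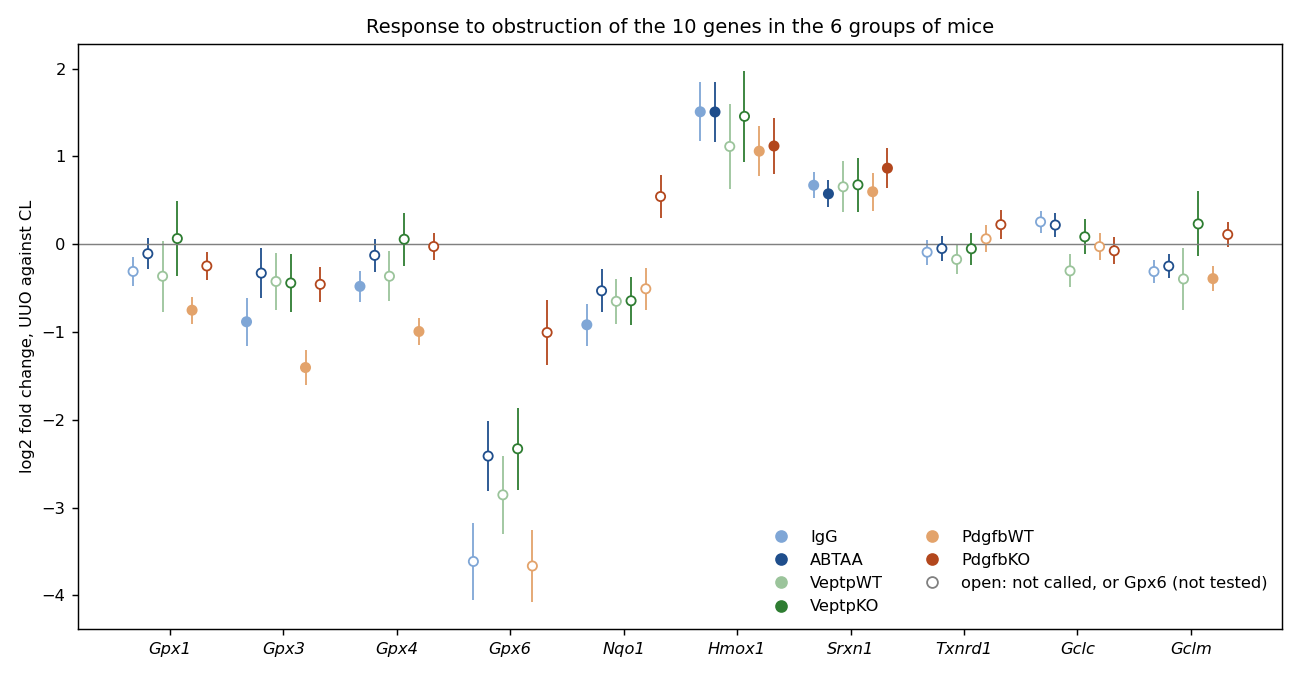
Log2 fold change of UUO against CL kidneys (y axis, points with SE bars) for each of the 10 genes in the 6 groups of mice, filled where the edgeR test passed. Gpx6 is far below 0 in 5 groups, between -3.66 and -2.33, and at -1.005 in mice labelled PdgfbKO. VeptpKO, at -2.33 here, was at -0.80 in its plain-named libraries, the form of all Pdgfb libraries. Hmox1 and Srxn1 lie above 0 in all 6 groups, though in plain-named VeptpKO libraries the Srxn1 mean was 88.9 CPM in CL and 84.8 CPM in UUO.

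The form of the library name moved with the level of several members. In VeptpWT CL kidneys, Gpx1 lay between 2092 and 4933 CPM in the 3 libraries with plain names and between 818 and 1101 CPM in the 4 with joined names, and Gclm between 325 and 355 against 128 and 175 CPM. Hmox1 moved the other way, with 24.2 to 59.2 CPM in VeptpWT UUO libraries with plain names and 110.3 to 188 CPM in those with joined names. The share of Gm42418 and AY036118 and the Xist and Y-linked transcripts, given before, differed between the same libraries, and their part in these levels was not tested.

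With the form of the name as a covariate, 4 members passed in each Veptp group. In VeptpWT mice Hmox1 (log2 change 1.26, adjusted p = 0.000897) and Srxn1 (0.59, adjusted p = 0.0154) rose, and Nqo1 (-0.76, adjusted p = 0.00128) and Gclm (-0.47, adjusted p = 0.00306) fell. In VeptpKO mice Hmox1 (1.72, adjusted p = 0.000178) and Srxn1 (0.75, adjusted p = 0.00803) rose, and Nqo1 (-0.63, adjusted p = 0.0184) and Gpx3 (-0.63, adjusted p = 0.0159) fell. That fit called 16.6% of genes higher and 17.3% lower in VeptpWT, and 10.7% and 10.8% in VeptpKO mice. In VeptpKO libraries with plain names the Srxn1 mean was 88.9 CPM in CL (n = 2) and 84.8 CPM in UUO kidneys (n = 4). With joined names it was 36.4 and 79.6 CPM (n = 4 each). Gpx6 changed with UUO by -1.97 in VeptpWT and -0.80 in VeptpKO libraries with plain names and by -3.67 and -3.87 in those with joined names. In IgG mice the same 2 subsets gave -2.89 and -4.41, and in ABTAA mice -1.67 and -3.46, so the value was further below 0 in the libraries with joined names in all 4 groups; this difference was not tested.

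In ABTAA mice, 3 CL and 3 UUO libraries share the numbers 9, 11 and 12, and these pairs deviated together from their group means. A fit of these libraries with the number as a block called 6 of the 9 members (background 14.4% higher and 17% lower of 9056 genes), against 4 in the same libraries without the block (11.2% higher and 13.1% lower) and 2 in the fit of all libraries. Hmox1 (log2 change 1.66), Srxn1 (0.83, adjusted p = 0.00117) and Gclc (0.39, adjusted p = 0.0261) rose, and Gpx3 (-0.67, adjusted p = 6.58e-05), Nqo1 (-0.70, adjusted p = 0.00111) and Gpx1 (-0.27, adjusted p = 0.0446) fell. Without the libraries that held both Xist and Y-linked transcripts, Hmox1 and Nqo1 remained of the 5 calls in IgG mice, and Gpx1, Gpx3 and Gpx4 of the 6 in PdgfbWT mice.

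The study asked whether TIE2 activation or loss of Pdgfb changes the kidney after obstruction, and each treated group was compared with its controls. ABTAA against IgG called 0 members (of 9 without Gpx6 in UUO and in the difference of the UUO responses, of 10 in CL) and 0% of genes, with 0 members at an unadjusted p under 0.05. DESeq2 called 0 members in all 3 comparisons, and the exact test of edgeR 0 in UUO and in CL, the comparisons it was run on. In UUO kidneys the Gpx6 level differed by 1.13 on the log2 scale (SE 0.508, not tested), 0.62 without ABTAA UUO replicate 2 and 1.74 without IgG UUO replicate 2. VeptpKO against VeptpWT likewise called 0 members and 0% of genes in all 3 comparisons, with 0 members at an unadjusted p under 0.05, 0 called by DESeq2 and 0 by the exact test of edgeR in UUO and CL. Leaving out the numbered Veptp libraries that carry opposite genotypes in CL and UUO kidneys (numbers 3, 4, 7 and 8) gave 0 calls as well.

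In the Pdgfb arm, 5 of the 9 members tested were higher in UUO libraries labelled PdgfbKO than in PdgfbWT UUO libraries and 0 were lower, where 18.6% of genes passed, 12% higher and 6.58% lower. In CL kidneys 0 members and 0% of genes passed, and 0 members had an unadjusted p under 0.05, with DESeq2 and the exact test of edgeR calling 0 members. The median log2 difference of the 9 in UUO was 0.52, against -0.02 over all genes. The UUO libraries of these labels also stood apart in 2 other measures: Gm42418 and AY036118 took 7.67% to 10.7% of counts in those labelled PdgfbKO and 5.41% to 7.34% in PdgfbWT, and the TMM factors ran from 0.885 to 1.03 and from 1.16 to 1.24. Their part in the differences was not tested. With all 12 groups in 1 fit none of the 5 passed, at log2 differences of 1.11 for Nqo1 (adjusted p = 0.0532), 0.98 for Gpx3 (adjusted p = 0.15001), 0.79 for Gpx4 (adjusted p = 0.148), 0.53 for Gpx1 (adjusted p = 0.553) and 0.52 for Gclm (adjusted p = 0.462).

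The 3 peroxidases tested were among the 5, and Gpx6, chosen on its obstructed levels and so not tested, was at 2.43 on the log2 scale (SE 0.450), a 5.37-fold higher level. Gpx3 was at 7727, 5341, 6374 and 4838 CPM in UUO libraries labelled PdgfbKO, all above the 4 PdgfbWT values given before (log2 difference 0.99, SE 0.198, adjusted p = 0.000860). Gpx4 was at 993, 938, 1028 and 884 CPM (0.79, SE 0.157, adjusted p = 0.000766) and Gpx1 at 2191, 1925, 1999.7 and 1561 CPM (0.53, SE 0.155, adjusted p = 0.0173), and neither overlapped PdgfbWT. The UUO levels of these 3 genes in libraries labelled PdgfbKO reached into the range of their CL libraries.

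Nqo1 and Gclm were the NRF2 targets that differed. Nqo1 was at 95.3, 135, 159 and 113 CPM in UUO libraries labelled PdgfbKO and 67.1, 51.6, 70.3 and 42.9 CPM in PdgfbWT, without overlap (log2 difference 1.12, SE 0.234, adjusted p = 0.00123). Gclm was at 303, 366, 333 and 244 CPM, overlapping PdgfbWT (0.52, SE 0.144, adjusted p = 0.0117), and this call was lost without replicate 2 of the UUO libraries labelled PdgfbKO (adjusted p = 0.0635). Hmox1 (-0.08, adjusted p = 0.868), Srxn1 (0.24, adjusted p = 0.456), Txnrd1 (0.23, adjusted p = 0.318) and Gclc (0.19, adjusted p = 0.421) did not pass.

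**Figure D4:**
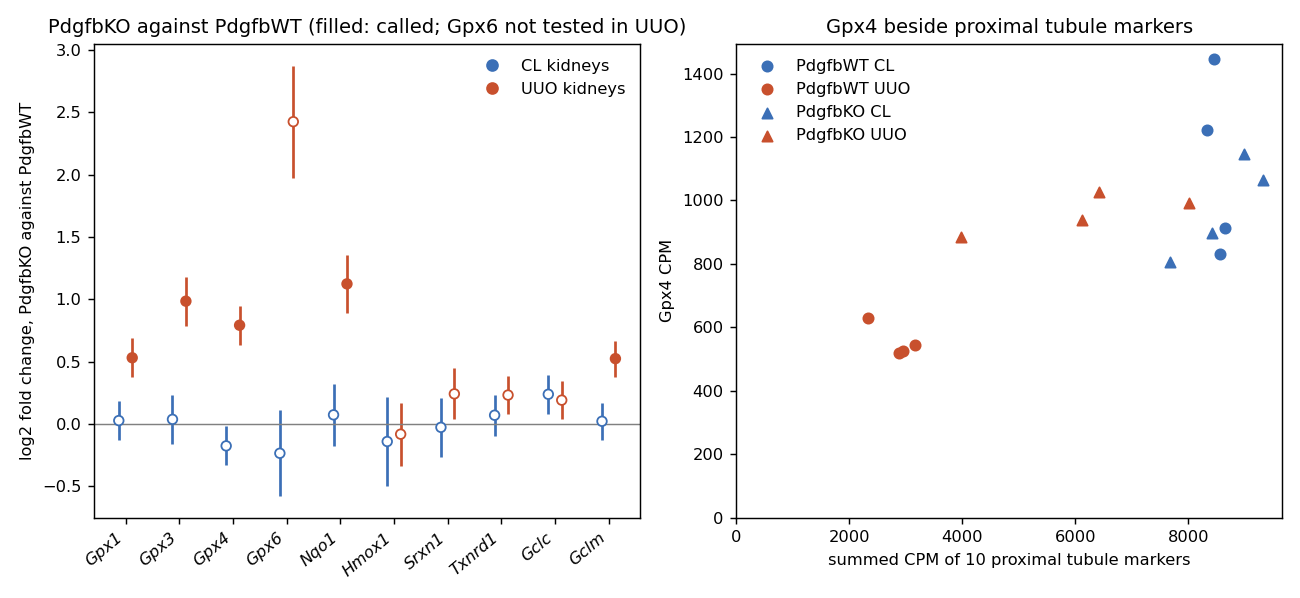
Left, log2 fold change between libraries labelled PdgfbKO and PdgfbWT libraries (y axis, points with SE bars) of the 10 genes in CL (blue) and UUO kidneys (red), filled where the edgeR test passed (Gpx6 was not tested in UUO kidneys). Right, Gpx4 CPM (y axis) against the summed CPM of 10 proximal tubule markers (x axis) in the 16 libraries, where the 4 PdgfbWT UUO libraries are lowest on both axes.

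The difference of the responses, (UUO minus CL labelled PdgfbKO) minus (UUO minus CL of PdgfbWT), passed for 2 of the 9 members tested, both above 0, where 8.56% of genes passed, 6.66% above and 1.9% below 0. These were Gpx4 at 0.97 (SE 0.222, adjusted p = 0.00650) and Gpx3 at 0.95 (SE 0.278, adjusted p = 0.0335). For Gpx6 the value was 2.66 (SE 0.569), built from the contrast it was chosen on and not tested. The PdgfbWT change with UUO, here and above, is measured from CL libraries that include unmarked sham-operated kidneys. The Gpx3 call was lost without any of 9 of the 16 libraries (CL replicate 4 and UUO replicates 1 and 3 labelled PdgfbKO, CL replicates 2, 3 and 4 and UUO replicates 1, 2 and 4 of PdgfbWT; adjusted p of up to 0.0780). With all 12 groups in 1 fit neither passed, at 0.96 for Gpx4 (adjusted p = 0.429) and 0.94 for Gpx3 (adjusted p = 0.588). Nqo1 was at 1.05 (adjusted p = 0.0565), and passed by DESeq2, without the filter (adjusted p = 0.00235) and with Xist as a covariate (adjusted p = 0.0350). The value was 0.50 for Gpx1 (adjusted p = 0.171) and 0.50 for Gclm (adjusted p = 0.139).

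Scaling bears on these differences. Without TMM the median of all genes between UUO libraries labelled PdgfbKO and PdgfbWT moved from -0.02 to -0.29, and the share of calls that were higher moved from 64.7% to 20.8%. Gpx3, Gpx4 and Nqo1 kept their calls there and Gpx1 (0.24, adjusted p = 0.151) and Gclm (0.24, adjusted p = 0.231) did not, all 5 staying above 0. In the difference of responses the median moved from -0.00 to -0.29 and the share of calls above 0 from 77.9% to 31.8%, and Gpx4 (0.66, adjusted p = 0.0372) kept its call while Gpx3 (0.63, adjusted p = 0.0553) did not. All 4 UUO libraries labelled PdgfbKO held both Xist and Y-linked transcripts, so a comparison without such libraries could not be fitted. With Xist as a covariate, Gpx1, Gpx3, Gpx4, Nqo1 and Gclm kept their calls in UUO kidneys, at 0.51 to 1.04 on the log2 scale, and Gpx3 and Gpx4 theirs in the difference of responses.

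Markers of proximal tubule moved with the same libraries. The summed level of 10 proximal tubule genes, all detected, was 2337 to 3163 CPM in PdgfbWT UUO and 3984 to 8006 CPM in UUO libraries labelled PdgfbKO, against 7678 to 9315 CPM in all 8 CL libraries. Of the 10 markers, 7 were higher in UUO libraries labelled PdgfbKO, and 10 fell with UUO in PdgfbWT, 8 in IgG, 7 in ABTAA, 6 in VeptpWT and 4 each in VeptpKO mice and those labelled PdgfbKO. Summed macrophage markers (7 of 8 tested; Cd163 did not pass the filter) were at 255 to 400.4 CPM in PdgfbWT UUO and 167 to 205 CPM in UUO libraries labelled PdgfbKO, and 4 of the 7 were lower in the latter. Of 5 markers of the later nephron 3 were higher, of 4 endothelial markers 2 were lower, and of 4 markers of injured tubule 1 was lower in the same comparison. Of 4 podocyte markers 0 passed there, and with UUO 2 fell in PdgfbWT, 1 in mice labelled PdgfbKO and 0 in the other groups. The only fat marker tested, Cfd, was at 3.68 there without passing. With UUO it rose in IgG (3.15) and fell in PdgfbWT mice (-3.98), and passed in no other group. With UUO, 7 of the 7 macrophage markers rose in IgG and PdgfbWT, 6 in ABTAA and VeptpWT, 5 in VeptpKO and 4 in mice labelled PdgfbKO, 4 of 4 injured tubule markers rose in all 6 groups, and 4 of 5 later nephron markers fell in each group but that labelled PdgfbKO, where 3 did. The part of these markers in the members' changes was not tested, and in whole kidney fewer cells of a type and less RNA per cell cannot be told apart.

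The wider NRF2 pathway was read through lists of related genes, whose counts stand beside the background already given. Nfe2l2, the gene of NRF2, was named after its values were seen: it passed in PdgfbWT mice alone (log2 change 0.41, adjusted p = 0.0342) and was at 0.20 in IgG mice and -0.19 in those labelled PdgfbKO. Keap1 passed in none of the 6 groups. Of the 10 tested genes for NRF2 and its regulators, 1 or 2 rose in each group and 1 fell in ABTAA mice. Maff, a small MAF partner of NRF2, rose in all 6, by 2.24 to 3.50. Between UUO libraries labelled PdgfbKO and PdgfbWT its log2 difference was -0.54, which did not pass (adjusted p = 0.351).

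Of 18 other NRF2 targets tested (21 listed), 3 rose and 3 fell in IgG, 2 and 3 in ABTAA, 2 and 2 in VeptpWT, 1 and 0 in VeptpKO, 2 and 7 in PdgfbWT and 2 and 0 in mice labelled PdgfbKO. Akr1b8, an aldo-keto reductase, rose in all 6 groups by 2.05 to 3.20. Pgd, of the pentose phosphate pathway that supplies NADPH, rose in 5, by 0.40 to 0.82, and was at 0.17 in VeptpKO mice. In UUO kidneys 7 of the 18 were higher and 1, Akr1b8 (-1.04, adjusted p = 0.0116), lower in libraries labelled PdgfbKO than in PdgfbWT, so it went opposite to Nqo1.

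Of 13 tested genes of glutathione synthesis, recycling and breakdown, 8 fell in IgG, 5 in ABTAA, 4 in VeptpWT, 0 in VeptpKO, 7 in PdgfbWT and 1 in mice labelled PdgfbKO, and 0 rose in any. Dpep1, a brush border dipeptidase that completes glutathione breakdown, fell in 5 groups by 0.79 to 1.76 on the log2 scale and was at -0.91 in VeptpKO mice. Of 11 thioredoxins and peroxiredoxins, 3, 1, 2, 1, 6 and 0 fell in the same order, and 0 rose. Of 5 genes for superoxide dismutases and catalase, 4, 3, 2, 2, 5 and 1 fell.

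Prdx3, the mitochondrial peroxiredoxin, Sod2, the mitochondrial superoxide dismutase, and Cat, catalase of the peroxisome, each fell in 5 groups and did not pass in mice labelled PdgfbKO. Their changes in PdgfbWT mice were -1.01, -1.48 and -1.50, and in those labelled PdgfbKO -0.10, -0.42 and -0.22. In UUO kidneys the level in libraries labelled PdgfbKO was higher for Prdx3 by 0.71, for Sod2 by 1.05 and for Cat by 1.18, and 7 of the 11, 5 of the 5 and 5 of the 13 genes of these lists were higher and 0 lower. The difference of responses passed for 4, 4 and 5 of them.

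For selenium, 3, 1, 1, 0, 4 and 1 of 11 tested genes fell with UUO in the same order of groups and 0 rose. Lrp2, named for this overlap, is in this list and also among the 10 proximal tubule markers, and fell in 4 of the 6 groups. Selenop, the selenium carrier of plasma, was named after its values were seen. It fell in PdgfbWT mice by 1.13 on the log2 scale (adjusted p = 0.00609) and in VeptpWT mice by 0.95 (adjusted p = 0.0479), and was higher in UUO libraries labelled PdgfbKO than in PdgfbWT by 1.25 (adjusted p = 0.00694). Of 3 genes of haem breakdown beside Hmox1, 1 fell in IgG, 2 in PdgfbWT and 1 in mice labelled PdgfbKO, and 0 rose. Gpx8, the only one of 4 further peroxidases to be tested, did not pass in any group, its change lying between 0.40 and 0.97. ABTAA against IgG and VeptpKO against VeptpWT called 0 genes of these lists in UUO or CL kidneys.

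Members also differed in how they varied between libraries of 1 group. Over the 36 CL libraries, after the mean of each group and name form was taken away from log2(CPM + 1), Gpx1 followed Gpx4 (Pearson r = 0.895) and Gpx3 (r = 0.719), and Gpx6 followed neither (r = -0.155 with Gpx1, and 6.35e-05 with Gpx3). Over the 39 UUO libraries Gpx1 followed Gpx3 (r = 0.741) and Gpx4 (r = 0.736), and Hmox1 followed Srxn1 (r = 0.558), while Gpx6 had r = 0.374 with Gpx3 and r = -0.478 with Hmox1. Nqo1 had r = 0.451 with Hmox1 and 0.358 with Srxn1 over the UUO libraries, and 0.528 and 0.410 over the CL libraries. These values describe libraries that share depth and scaling. The genes most like Gpx6 over the CL libraries, of 6858 ranked, were Crip2 (r = 0.748), Cryab (r = 0.745), Pla1a (r = 0.724), Abhd6 (r = 0.723) and Pcolce (r = 0.717). In IgG mice the UUO change of these genes was -1.26 for Pla1a, -0.89 for Abhd6, -0.58 for Crip2 and -0.53 for Pcolce, and Cryab rose by 0.72. None of the 5 passed between UUO libraries labelled PdgfbKO and PdgfbWT.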

How the data were processed

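Kidney RNA of 75 libraries in 12 groups was sequenced as 3′ reads with molecular identifiers. Per the labels and the study's methods, the authors used STAR 2.7.3a, UMI-tools 1.1.4 and featureCounts of Subread 1.4.6-p5 on mm10 and deposited raw counts per gene. These deposited counts were used as they stand; 0 columns belonged to no sample. CPM values were computed here, scaled by TMM within each arm and not across arms.

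For each of the 3 arms, edgeR 4.0.16 (R 4.3.3, limma 3.58.1) filtered low counts by group and fitted a quasi-likelihood model over the 4 groups. P-values are two-sided, Benjamini-Hochberg adjusted over all genes of the arm, with a threshold of 0.05. DESeq2 1.42.0, the edgeR exact test, no TMM, no filter, Xist or name form as a covariate, each name form alone, all 12 groups in 1 fit, the library number as a block and leaving out each library were alternatives. Leaving out libraries with Xist and Y-linked transcripts, or those numbered 3, 4, 7 and 8, was added after seeing the data. The tests were checked on simulated data. Libraries of ABTAA mice numbered 9, 11 and 12 were taken as pairs, since their deviations from the group means correlated (r = 0.387, 0.199 and 0.160). No 2 libraries held identical counts.

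All 10 members are named, and Gpx6, chosen for its fall with UUO, is given without a test wherever UUO libraries enter. Of other lists, up to 4 genes called in 1 direction in at least 5 of the 6 UUO comparisons are named, and the 5 genes most like Gpx6 among those with a mean of at least 20 counts. The members and lists were chosen with earlier results of these data known. Depth limits Gpx6 and Hmox1, each with as few as 1 count in a library. Loci are from GENCODE vM21 (mm10), and promoters from RefSeq.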

Additional observations from a re-analysis of the deposited data

Results flagged for a closer look

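Of 120 pairs of gene and group, 5 held a library far from the others of its group; chance alone gives about 1 in 20. Gpx1 stood at 2901 CPM in IgG UUO replicate 5, where the next library had 2017 CPM. Txnrd1 stood at 184 CPM in ABTAA UUO replicate 7, above the next at 129 CPM. Gclc stood at 193 CPM in PdgfbWT UUO replicate 3, below the next at 239.6 CPM. Srxn1 stood at 33.1 CPM (13 counts) in CL replicate 2 labelled PdgfbKO, below the next at 72.2 CPM, and at 68.0 CPM (20 counts) in UUO replicate 1 labelled PdgfbKO, below the next at 129 CPM.

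The response to UUO differed between mice labelled PdgfbKO and PdgfbWT mice, by the test of the difference itself, for Gpx4 (0.97 on the log2 scale) and Gpx3 (0.95). Of the label itself, Pdgfb was at a log2 difference of 0.78 in CL and -0.47 in UUO libraries labelled PdgfbKO against PdgfbWT, neither called. Its smaller UUO response there (difference -1.26, adjusted p = 0.0460, edgeR quasi-likelihood test) combines both values.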

How the results depend on the processing

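No member tested and called changed direction under any alternative. Gpx6, not tested, went from 0.59 to -0.0754 between VeptpKO and VeptpWT UUO libraries with joined names alone, and in the difference of Veptp responses to -0.20 there and -0.10 with the replicate block. In IgG mice 2 members (Hmox1 and Nqo1) were called without libraries holding Xist and Y-linked transcripts, against 5; Gpx4 was called in 4 of 10 alternatives. In ABTAA mice, where 2 were called, 1 was called in libraries with plain names, 6 with the replicate block, 1 with all 12 groups in 1 fit, and 3 each with the name form as a covariate or no filter (adding Nqo1, lower) and in joined names (adding Gpx3, lower). In VeptpWT mice, with 0 called, 1 was called without TMM, 1 by the exact test, 1 with Xist as a covariate, 4 with the name form as a covariate, 2 in libraries with joined names and 3 with all 12 groups. In VeptpKO mice, with 0 called, the counts were 1 without TMM, 4 with the name form, 3 with joined names and 2 with all 12 groups. Without TMM, 1383 genes were called higher and 543 lower in VeptpWT, and 613 and 242 in VeptpKO mice. For the other Veptp settings but the name form covariate, the replicate block included, the share over all genes was not computed. Those counts have no background to stand beside. Veptp numbers are carried by opposite genotypes in CL and UUO kidneys for 4 of 8 and were not taken as pairs. Their r ran from 0.0581 (number 5) to 0.426 (number 3). The numbers with opposite genotypes, 3, 4, 7 and 8, had r of 0.426, 0.285, 0.128 and 0.277. What this means for the labels was not tested. With the number as a replicate block 2 members were called in VeptpWT and 4 in VeptpKO mice. The block changed no other call. In PdgfbWT mice, with 6 called, 3 were called without libraries holding both transcripts and 2 with all 12 groups; without the filter the count was 6 again, with Nqo1 in place of Gclm. With all 12 groups in 1 fit, 0 were called in mice labelled PdgfbKO, 0 between UUO libraries labelled PdgfbKO and PdgfbWT (5 called), and 0 in the difference of responses (2 called); without TMM these last counts were 3 and 1, and the cause was not tested. Leaving out 1 library gave 4 to 6 calls in IgG, 2 in ABTAA, 0 to 1 in VeptpWT and in VeptpKO, 4 to 6 in PdgfbWT and 0 to 2 in mice labelled PdgfbKO, 4 to 5 between UUO libraries labelled PdgfbKO and PdgfbWT, and 1 to 3 in the difference of responses. DESeq2, no filter and the Xist covariate each called 3 members in that difference, adding Nqo1, and no filter added Gpx3 (lower) in mice labelled PdgfbKO. Depth limits the low levels of Gpx6 in UUO kidneys and of Hmox1 in CL kidneys.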
